A study of Mus musculus with 8 samples.

Results

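BMAL1 ChIP-seq peaks were examined at 10 selected genes of prostaglandin synthesis, breakdown and E receptor signalling: Ptger1, Ptger2, Ptger3, Ptger4, Pla2g4a, Ptgs1, Ptgs2, Ptges, Tbxas1 and Hpgd. A peak belonged to a gene when its centre had its nearest curated RefSeq transcription start site in that gene, or lay within the gene body (GRCm38). By this rule 359 of the 211109 peaks in the 4 lists belonged to the 10 genes: 29 of 13683 in DIFF1, 307 of 185417 in DIFF2, 11 of 6534 in UNDIFF1 and 12 of 5475 in UNDIFF2. HC11 cells are an established mouse line of mammary epithelium. The DIFF cultures were kept for 48 h in EGF-free medium with 10% serum and 5 µg/mL insulin, and then for 96 h with 0.1 µM dexamethasone, 5 µg/mL insulin and 5 µg/mL prolactin. The UNDIFF cultures had the EGF-free 48 h alone and carry the replicate numbers 6 and 8 in the labels. Both states are unmodified HC11 cells, each of the 4 ChIP experiments had its own input DNA, and peak lists cannot show whether the cells expressed mammary markers.

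BMAL1 and its partner CLOCK bind the E-box, CACGTG, and drive the feedback loop of the circadian clock. Prostaglandins are made in steps. Cytosolic phospholipase A2, encoded by Pla2g4a, frees arachidonic acid from membranes, the cyclooxygenases of Ptgs1 and Ptgs2 convert it to prostaglandin H2, and the synthases of Ptges and Tbxas1 turn that into prostaglandin E2 and thromboxane A2. Prostaglandin E2 acts through 4 receptors, of which the products of Ptger2 and Ptger4 raise cAMP, that of Ptger3 lowers it and that of Ptger1 raises calcium. The dehydrogenase of Hpgd inactivates prostaglandin E2. In the mammary gland this pathway is best known from tumours in which Ptgs2 is induced.

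Each list gives a findPeaks score, based on the tags at a peak, and the fold of ChIP over input tags. The lists differed in ways that bear on every count. DIFF2 had 13.6 times as many peaks as DIFF1, the lowest implied depth (35300000 tags, against 57500000 in DIFF1, 80300000 in UNDIFF1 and 77100000 in UNDIFF2) and the lowest accepted findPeaks score (14, against 23 to 24 in the others). The centres of 86.0% of its peaks lay in soft-masked repeats, against 21.4% to 26.6% in the other 3 lists. DIFF2 therefore stands apart, and each result is given by sample. Implied depth is that of the ChIP or the input, whichever is smaller, and need not be that of the ChIP. The paper states that a DIFF pair of input and ChIP was sequenced far deeper than the others and that a part of its reads was used.

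The DNA of the peaks that carry the results is shown first, read from the plus strand of GRCm38 with every CANNTG, the general E-box pattern, in capitals. Of all 359 peaks, 2 had their centre within 1 kb upstream of a start site. One was in DIFF1, 247 bp upstream of Hpgd, and the other in DIFF2, 256 bp upstream of Pla2g4a, where the middle 300 bases are shown.
Hpgd promoter, DIFF1 (chr8:56294198-56294412): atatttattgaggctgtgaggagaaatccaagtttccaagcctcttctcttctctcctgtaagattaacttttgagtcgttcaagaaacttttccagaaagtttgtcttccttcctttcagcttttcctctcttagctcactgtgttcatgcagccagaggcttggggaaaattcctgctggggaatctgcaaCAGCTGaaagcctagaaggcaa
Pla2g4a promoter, DIFF2 (chr1:149961397-149961696): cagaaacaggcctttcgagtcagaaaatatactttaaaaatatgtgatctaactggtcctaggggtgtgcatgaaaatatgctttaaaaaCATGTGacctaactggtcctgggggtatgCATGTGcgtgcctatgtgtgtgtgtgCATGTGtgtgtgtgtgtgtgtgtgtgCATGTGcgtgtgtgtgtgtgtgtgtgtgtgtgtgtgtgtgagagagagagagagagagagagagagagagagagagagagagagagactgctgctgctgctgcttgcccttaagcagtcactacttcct
The Hpgd sequence held 1 CANNTG and the Pla2g4a sequence 4, all 4 of them CATGTG, the later ones along a run of TG repeats. Neither held CACGTG. On its own, CANNTG is common: it occurred in 72.5% of all DIFF1 peaks and 86.3% of all DIFF2 peaks. Repeat masking covered 28.8% of the Hpgd peak and 60.5% of the whole Pla2g4a peak, including the centre of each.

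Next are sites within 10 kb of the start sites of Ptger3, Tbxas1 and Ptger2 in DIFF1 and the UNDIFF lists, which carry little or no repeat sequence. The Ptger1 peak of UNDIFF1, at 3.12 kb and with 16.4% of its bases masked, is of the same kind and is shown further below around its E-box.
Ptger3 upstream, DIFF1 (chr3:157562351-157562565): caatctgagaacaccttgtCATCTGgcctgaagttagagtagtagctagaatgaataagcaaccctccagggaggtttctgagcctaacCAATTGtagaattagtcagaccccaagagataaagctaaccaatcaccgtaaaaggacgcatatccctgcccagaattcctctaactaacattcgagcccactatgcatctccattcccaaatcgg
Ptger3 intron 1, UNDIFF1 (chr3:157570373-157570567): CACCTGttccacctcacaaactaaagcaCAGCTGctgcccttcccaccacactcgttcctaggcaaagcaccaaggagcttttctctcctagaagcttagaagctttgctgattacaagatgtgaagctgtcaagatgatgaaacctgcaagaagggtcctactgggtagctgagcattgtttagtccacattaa
Tbxas1 intron 1, DIFF1 (chr6:38922331-38922545): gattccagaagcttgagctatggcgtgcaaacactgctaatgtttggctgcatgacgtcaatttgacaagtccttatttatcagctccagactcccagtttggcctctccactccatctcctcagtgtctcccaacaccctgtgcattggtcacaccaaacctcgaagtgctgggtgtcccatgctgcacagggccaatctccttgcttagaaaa
Ptger2 upstream, UNDIFF2 (chr14:44979261-44979489): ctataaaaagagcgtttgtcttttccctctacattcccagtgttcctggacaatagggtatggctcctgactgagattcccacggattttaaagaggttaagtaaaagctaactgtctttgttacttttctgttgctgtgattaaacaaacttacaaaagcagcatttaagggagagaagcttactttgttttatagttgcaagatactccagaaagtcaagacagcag
Both Ptger3 sequences held 2 CANNTG, and the Tbxas1 and Ptger2 sequences held 0. Repeat masking covered 0% of the first 3 sequences and 16.2% of the last, including its centre.

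CACGTG itself occurred in 7 of the 359 peaks: 6 in DIFF2 and 1 in UNDIFF1. Each is shown with 20 bases on either side and the E-box in capitals.
Pla2g4a, DIFF2, 763 kb downstream (chr1:149159822-149159867): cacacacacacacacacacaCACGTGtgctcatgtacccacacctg
Pla2g4a, DIFF2, 672 kb downstream (chr1:149250422-149250467): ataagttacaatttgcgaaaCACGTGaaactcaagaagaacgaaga
Pla2g4a, DIFF2, 556 kb downstream (chr1:149365883-149365928): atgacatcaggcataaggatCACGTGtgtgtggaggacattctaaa
Pla2g4a, DIFF2, 54.2 kb upstream (chr1:150015574-150015619): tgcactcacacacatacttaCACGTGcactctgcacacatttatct
Ptger1, UNDIFF1, 3.12 kb upstream (chr8:83663580-83663625): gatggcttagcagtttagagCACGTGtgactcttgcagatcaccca
Ptger2, DIFF2, 4.47 kb upstream (chr14:44983580-44983625): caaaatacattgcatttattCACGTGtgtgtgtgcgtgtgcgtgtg
Ptger2, DIFF2, 63.6 kb downstream (chr14:45051600-45051645): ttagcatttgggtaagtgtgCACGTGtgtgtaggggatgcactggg
Of the 7 E-boxes, 5 lay in soft-masked sequence, and several abut runs of CA or TG repeats that can be read in the lines above. The Ptger1 E-box, in a peak centred in an intron of another gene, and 1 of the Pla2g4a E-boxes lay outside it. The share of the genes' peaks with CACGTG was 1.95% in DIFF2 (6 of 307, 95% Wilson interval 0.899% to 4.20%), against 2.65% of the whole DIFF2 list. No CACGTG was found in the 29 DIFF1 peaks, where the upper bound was 11.7% and the share of the whole list 2.01%. One of 11 UNDIFF1 peaks held it, 9.09% with an interval of 1.62% to 37.7%, against 2.13% of the whole list. None of 12 UNDIFF2 peaks did, with an upper bound of 24.2%, against 1.46% of the whole list. These intervals cover counting error only. The variant CACGTT, searched on both strands, was in 5 DIFF2 peaks (1.63%), 1 UNDIFF2 peak (8.33%) and no peak of DIFF1 or UNDIFF1, against 1.91% to 2.47% of the whole lists.

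The genes' own promoters were searched in the RefSeq promoter sequences of GRCm38.p6, which run from 250 bases before to 50 after a start site and matched 9 of the 10 genes with 10 promoters. Ptger1 was the gene without a match, so its promoter was not searched. Among the matched genes Ptgs2 alone had a CACGTG, beginning 16 bases downstream of its start site, shown here with 12 bases on either side.
Ptgs2 (chr1:150100035-150100064): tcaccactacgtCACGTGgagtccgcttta
Of all 32851 RefSeq promoters, 7.15% held CACGTG and 4.68% CACGTT, which was in 0 of the 10. The closest peak of any list lay 8.88 kb from the Ptgs2 start site. This says only where peaks were listed, because sites below the score minimum of a list are not in it.

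Of the 10 genes 5, namely Ptger2, Ptger3, Ptger4, Pla2g4a and Hpgd, had peaks in all 4 samples, whereas 4.54% of the 21000 protein coding genes tested did. These 5 genes have long stretches of sequence nearest to their start sites. Among the 25% of genes with the longest such stretches, which hold 6 of the 10, 16% had peaks in all 4 lists. The 10 genes were chosen with earlier results of these data known, and the paper names these 5 among its potential BMAL1 targets. The shares of all genes are therefore given beside the counts for scale and test nothing about the 10 genes, here and below. The median stretch was 142 kb for the 10 genes, against 49.7 kb for all genes, and the median total over the 4 lists was 19 peaks a gene, against 4. Ptgs1, Ptgs2 and Ptges had peaks in DIFF2 alone, as did 52% of all genes. No gene of the 10 was DIFF-only, with a peak in DIFF1 and in DIFF2 and none in UNDIFF1 or UNDIFF2, a pattern found at 14.2% of all genes. That count was 3 without DIFF1 (Ptgs1, Ptgs2 and Ptges) and 2 without UNDIFF1 (Ptger1 and Tbxas1). The 14.2% alone is not the share of all genes for these counts, and none was computed without UNDIFF1. Without DIFF1 the pattern takes in every gene with peaks in DIFF2 alone (52% of all genes) and every DIFF-only gene (14.2%), groups with no gene in common. At 3 of the 10 genes, the count without DIFF1 was below the 52% alone. The plot of peak numbers shows that Pla2g4a and DIFF2 held most of the peaks by this rule. The lead of Pla2g4a rested on curated start sites and distant peaks: its total over the 4 lists was 228, but 26 with predicted RefSeq transcripts included, when Hpgd had 36 and Tbxas1 27, and 26 within 100 kb of a start site, when Hpgd had 27.

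**Figure D1:**
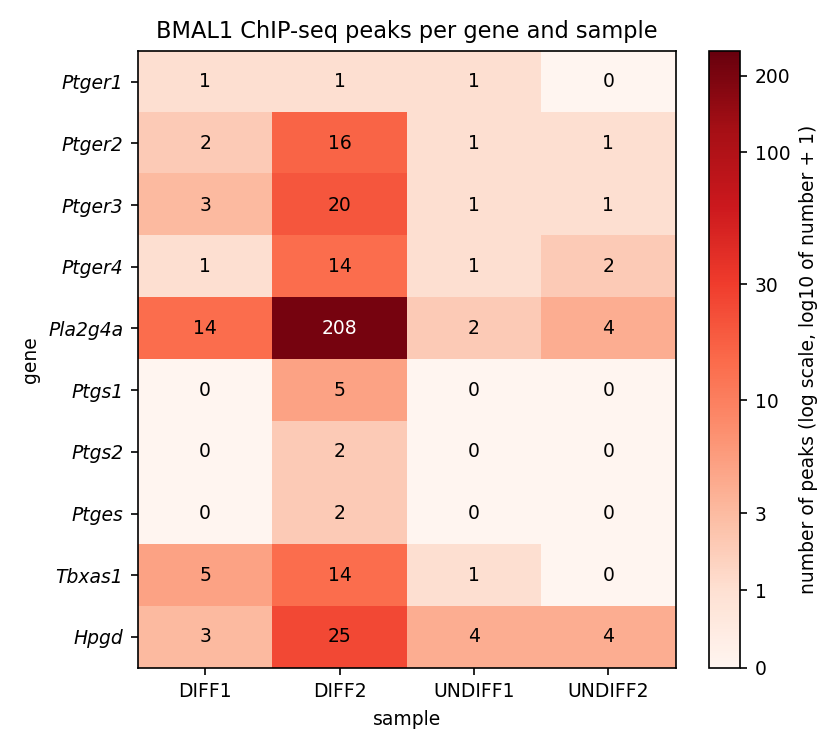
Number of BMAL1 peaks of each gene (rows) in each sample (columns, DIFF left of UNDIFF), with the number printed in each cell and colour on a log scale. Pla2g4a has 208 of the 307 DIFF2 peaks, and Ptgs1, Ptgs2 and Ptges have peaks in the DIFF2 column alone.

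Peak numbers were compared between the states on a log2 scale. The mean was 6.56 ± 2.41 in the DIFF cultures and 3.52 ± 0.09 in the UNDIFF cultures (SD, n = 2 each), a difference of 3.04 (exact permutation test, two-sided, p = 0.333). With 2 samples a state 0.333 is the smallest p that this test can give. Whole lists differed in the same direction, and as a share of its list the number of the genes' peaks was 2.12 per 1000 peaks in DIFF1 and 1.66 in DIFF2, against 1.68 in UNDIFF1 and 2.19 in UNDIFF2. The states overlapped on this scale for all 10 genes (difference -0.05 per 1000, exact permutation test, two-sided, p = 0.667). Without Pla2g4a, which was left out after seeing the data, they did not overlap. The values were 1.10 per 1000 in DIFF1 and 0.53 in DIFF2, against 1.38 in UNDIFF1 and 1.46 in UNDIFF2 (difference -0.60, p = 0.333 by the same exact test). Pla2g4a held 48.3% of the genes' peaks in DIFF1 and 67.8% in DIFF2, against 18.2% in UNDIFF1 and 33.3% in UNDIFF2. Its removal therefore lowers the DIFF values most. Both UNDIFF cultures were likewise above both DIFF cultures within 100 kb of a start site (difference -0.48) and with predicted transcripts (difference -0.46), each at that smallest p of 0.333. In both settings Pla2g4a fell from 228 to 26 peaks, so they are not separate from leaving it out.

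The prostaglandin E receptor genes held 7 peaks in DIFF1 and 51 in DIFF2, against 4 in UNDIFF1 and 4 in UNDIFF2. Ptger3 (chr3:157566876-157644755, ENSMUSG00000040016) had 3 peaks in DIFF1 and 20 in DIFF2, and 1 in each UNDIFF culture. One in DIFF1 and one in UNDIFF1 lay on either side of its start site, at 4.42 kb upstream (5.52-fold over input, score 25) and at 3.59 kb downstream, in intron 1 (3.97-fold, score 27.5). The centres of these 2 peaks were 8.01 kb apart. A further DIFF1 peak at 10.3 kb upstream had the highest score of any peak of the 10 genes in that list (36, 5.88-fold). Repeat masking covered 53.5% of that peak, including its centre. In DIFF2 all 20 peaks of Ptger3 lay downstream of the start site, the closest at 28.7 kb. The UNDIFF2 peak lay 138 kb downstream, and all of its bases were soft-masked.

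Ptger2 (chr14:44988111-45003820, ENSMUSG00000037759) had 2 peaks in DIFF1 and 16 in DIFF2, and 1 in each UNDIFF culture. Its UNDIFF2 peak, 8.74 kb upstream, had the highest fold over input of the 10 genes' peaks in that list (10.3-fold), with a score of 25 and 2.4 input tags. The closest peaks of the other lists were in DIFF1 at 10.9 kb downstream in intron 1 (6.89-fold), in DIFF2 at 4.47 kb upstream (3.35-fold, with the E-box shown above) and in UNDIFF1 at 49.8 kb downstream (2.80-fold). Each sample thus had a different site. All bases of the DIFF1 peak in intron 1 were soft-masked. The closest peaks of 2 samples at Ptger2 were those of DIFF1 and DIFF2 at 66 kb downstream, with centres 787 bp apart.

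Ptger4 (chr15:5233399-5244187, ENSMUSG00000039942) had 1 peak in DIFF1 and 14 in DIFF2, against 1 in UNDIFF1 and 2 in UNDIFF2. None lay in its gene body. The only peak within 10 kb was in DIFF2, 2.58 kb upstream (4.46-fold). The DIFF1 peak at 84.9 kb upstream (3.45-fold) and an UNDIFF2 peak at 82.4 kb upstream (5.17-fold) had centres 2.57 kb apart. Ptger1 (chr8:83666644-83670105, ENSMUSG00000019464) is a short gene with 20.7 kb of nearest sequence, and none of its 3 peaks lay in its gene body. All 3 were centred in introns of other genes. They were in DIFF1 at 11.1 kb downstream (7.95-fold), in DIFF2 at 8.95 kb downstream (2.55-fold) and in UNDIFF1 at 3.12 kb upstream (2.93-fold). UNDIFF2 had none.

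**Figure D2:**
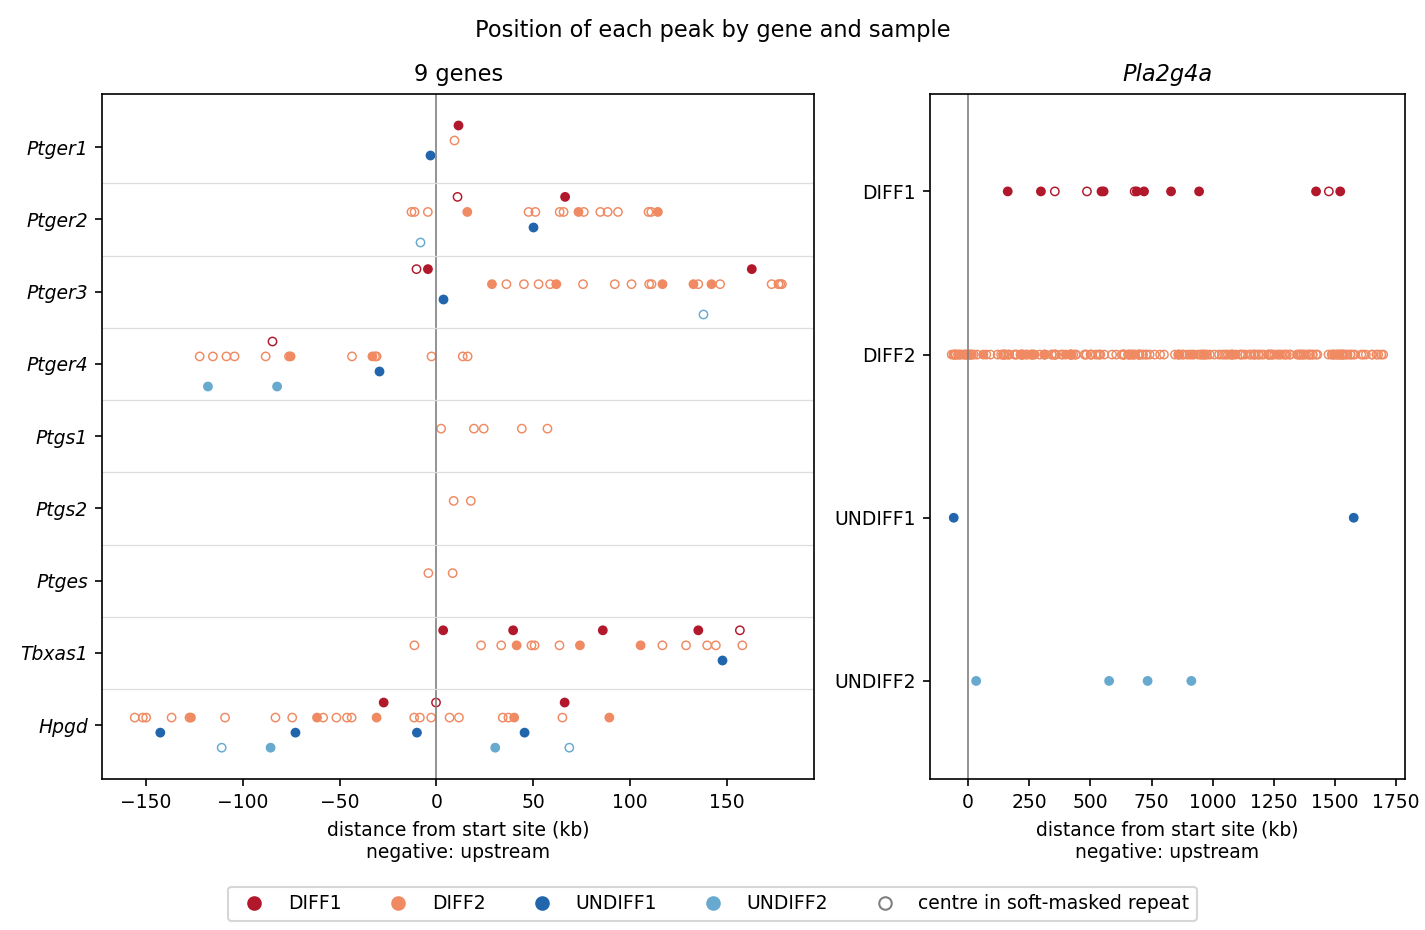
Distance of each peak centre from the start site of its gene in kb, for 9 genes (left) and Pla2g4a on its own scale (right), with DIFF1, DIFF2, UNDIFF1 and UNDIFF2 from top to bottom within each gene and open circles for centres in soft-masked repeats. DIFF2 has 35 filled circles of 307, and a single pair of peaks from 2 samples overlaps, at Pla2g4a.

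Of the genes that supply and convert arachidonic acid, Pla2g4a (chr1:149829618-149961290, minus strand, ENSMUSG00000056220) held most peaks by curated start sites: 14 in DIFF1 and 208 in DIFF2, against 2 in UNDIFF1 and 4 in UNDIFF2. It is nearest to 1821 kb of sequence, more than 99.7% of genes, most of it downstream. All 14 DIFF1 peaks lay 162 kb to 1521 kb downstream, with folds of 3.04 to 6.10. In DIFF2, 135 of the 208 peaks were more than 500 kb from a start site, and 10 lay in the gene body. The UNDIFF2 list had 1 peak in the gene body, in intron 5 (3.62-fold), and 3 peaks beyond 500 kb. The UNDIFF1 peaks were 58.9 kb upstream (4.67-fold) and 1576 kb downstream (3.43-fold). The highest fold of all the genes' peaks was at Pla2g4a in DIFF2, 130-fold at 387 kb downstream, where 27 ChIP tags stood against 0.2 normalized input tags. Of the 70 DIFF2 peaks of the 10 genes at 10-fold or more, 45 had at most 2 input tags.

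Ptgs1 (chr2:36230426-36252272, ENSMUSG00000047250) and Ptgs2 (chr1:150100031-150108234, ENSMUSG00000032487) encode the constitutive and the inducible cyclooxygenase. Ptgs1 had 5 peaks and Ptgs2 had 2, all in DIFF2 and all with soft-masked centres. The Ptgs1 peak closest to the start site lay at 2.38 kb downstream in intron 2 (3.19-fold), and its highest fold, 49.5, stood on 0.4 input tags. The Ptgs2 peaks lay downstream of the gene, the closer at 8.88 kb (5.44-fold). Ptges (chr2:30889471-30903297, minus strand, ENSMUSG00000050737), the inducible prostaglandin E synthase, had 2 peaks in DIFF2, at 4.20 kb upstream (8.11-fold) and at 8.35 kb downstream in intron 2 (4.20-fold), both with soft-masked centres. DIFF1, UNDIFF1 and UNDIFF2 had 0 peaks at these 3 genes.

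Tbxas1 (chr6:38918986-39084579, ENSMUSG00000029925) had 5 peaks in DIFF1 and 14 in DIFF2, against 1 in UNDIFF1 and 0 in UNDIFF2. Of its 20 peaks, 19 lay in the gene body. All 5 DIFF1 peaks were intronic, and the one in intron 1, at 3.45 kb, had the highest fold of the 10 genes' peaks in that list (11.1-fold) with 16.6 ChIP tags against 1.5 input tags and a score of 26. The DIFF1 peaks were spread over introns 1, 3, 5, 9 and 10, with folds of 3.83 to 11.1. The UNDIFF1 peak (4.01-fold, score 31.5) lay in intron 9, and its centre was 9.46 kb from the closest DIFF1 peak. It lies nearer to the start site of another gene. When the nearest start site alone assigned peaks, Tbxas1 kept 10 of its 20 peaks and became the single DIFF-only gene.

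Hpgd (chr8:56294552-56321046, ENSMUSG00000031613), a gene of prostaglandin breakdown, had 3 peaks in DIFF1 and 25 in DIFF2, and 4 in each UNDIFF culture. It was the one gene of the 10 with more peaks in both UNDIFF cultures than in DIFF1. The promoter peak of DIFF1 shown above had 5.87-fold enrichment over input, 20.5 ChIP tags against 3.5 input tags and a score of 33.5. The closest peaks in the other lists were in DIFF2 at 2.74 kb upstream (4.09-fold), in UNDIFF1 at 10.1 kb upstream (3.35-fold) and in UNDIFF2 at 30.3 kb downstream in intergenic sequence (2.66-fold). None overlapped the promoter peak. A DIFF1 peak and an UNDIFF2 peak lay 2.41 kb apart at 66.2 kb and 68.6 kb downstream, the closest approach of any peaks of DIFF1, UNDIFF1 and UNDIFF2 at the 10 genes.

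Peaks within 10 kb of a start site were found at all 10 genes when every list was counted, against 68.3% of all genes. In DIFF1, UNDIFF1 and UNDIFF2 they were found at 5 genes (Ptger1, Ptger2, Ptger3, Tbxas1 and Hpgd), against 12.8% of all genes. Within 2 kb there were peaks at 2 genes, Hpgd in DIFF1 and Pla2g4a in DIFF2, against 21% of all genes. By sample, 3 of 29 DIFF1 peaks and 14 of 307 DIFF2 peaks lay within 10 kb, against 2 of 11 in UNDIFF1 and 1 of 12 in UNDIFF2. In the whole lists the share was 16.0% in DIFF1 and 16.4% in DIFF2, against 14.9% in UNDIFF1 and 12.4% in UNDIFF2. The peaks closest to that limit were a Pla2g4a peak of DIFF2 at 9.96 kb, inside, and the Hpgd peak of UNDIFF1 at 10.1 kb, outside. Most of the genes' peaks were intergenic: 21 of 29 in DIFF1 and 270 of 307 in DIFF2, against 8 of 11 in UNDIFF1 and 11 of 12 in UNDIFF2. So were most peaks of the whole lists, 59.5% in DIFF1 and 63.2% in DIFF2, against 59.7% in UNDIFF1 and 65.5% in UNDIFF2.

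Only 1 pair of peaks from 2 samples overlapped, so 1 of the 10 genes, Pla2g4a, had a shared site, against 4.5% of all genes. The pair was a DIFF1 peak (chr1:149567873-149568087, 3.98-fold, score 24) and a DIFF2 peak (chr1:149568070-149568406, 3.88-fold, score 29), 354 kb downstream of the start site. They shared 17 bp, shown in capitals with 60 bases on either side.
Shared bases of DIFF1 and DIFF2 (chr1:149568011-149568147): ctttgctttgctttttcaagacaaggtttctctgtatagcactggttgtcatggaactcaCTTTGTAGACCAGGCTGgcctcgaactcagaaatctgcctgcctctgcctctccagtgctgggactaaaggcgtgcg
All of these bases were soft-masked as repeat, and 24 is the lowest score in the DIFF1 list. By the rules used here the 4 E receptor genes had no overlapping pair, and neither did most genes, since 4.5% of all genes had one. The presence of Ptger2, Ptger3 and Ptger4 in every list rested on separate sites. The paper, by its own overlap and assignment of peaks, lists Ptger2, Ptger3 and Ptger4 among the genes nearest to overlapping peaks. What lies behind this difference was not tested. The DIFF1 and UNDIFF lists shared no site at any of the 10 genes. The share of all genes with a site shared among these lists was not computed, so this count says nothing particular about the 10 genes.

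Peak density, the number of peaks per Mb of the sequence nearest to the 10 genes, was above that of the whole list in each sample. It was 9.82 per Mb in DIFF1 (29 peaks in 2.95 Mb, exact 95% Poisson interval 6.57 to 14.1), against 5.17 in the whole DIFF1 list. In DIFF2 it was 104 (92.6 to 116), against 70.0. In UNDIFF1 it was 3.72 (1.86 to 6.66), against 2.47, and in UNDIFF2 4.06 (2.10 to 7.10), against 2.07. Pla2g4a alone had 7.69 per Mb in DIFF1 (4.20 to 12.9) and 114 in DIFF2 (99.3 to 131), against 1.10 in UNDIFF1 (0.133 to 3.97) and 2.2 in UNDIFF2 (0.599 to 5.63). Hpgd had 11.0 per Mb in DIFF1 (2.27 to 32.2) and 91.8 in DIFF2 (59.4 to 136), against 14.7 in UNDIFF1 (4.00 to 37.6) and 14.7 in UNDIFF2 (4.00 to 37.6). The 4 receptor genes had 14.1 per Mb in DIFF1 (5.68 to 29.1) and 103 in DIFF2 (76.6 to 135), against 8.07 in UNDIFF1 and in UNDIFF2 (2.2 to 20.7 in each). These densities follow the length of each list. Divided by the density of the list, the receptor genes stood at 2.73 in DIFF1 and 1.47 in DIFF2, against 3.27 in UNDIFF1 and 3.90 in UNDIFF2. Hpgd stood at 2.13 and 1.31, against 5.95 and 7.10. Pla2g4a went the other way, with 1.49 and 1.63 against 0.445 and 1.06. The intervals cover counting error only, and the genes were chosen with earlier results of these data known, so no test was made.

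**Figure D3:**
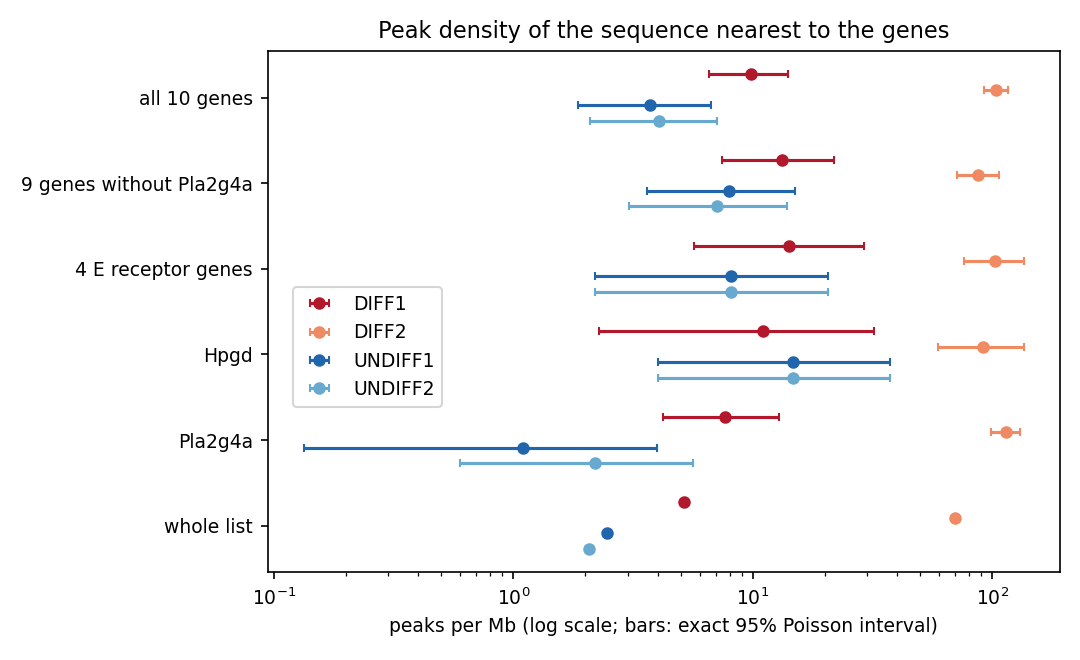
Peaks per Mb of the sequence nearest to the genes, on a log axis, for all 10 genes, 9 genes without Pla2g4a, the 4 E receptor genes, Hpgd, Pla2g4a and the whole list (bottom), by sample, with exact 95% Poisson intervals as bars. The DIFF2 points sit between 70.0 and 114 per Mb and all others at 14.7 or below.

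In strength the genes' peaks were close to their lists. The median fold over input was 4.54 in DIFF1 (range 3.04 to 11.1) and 5.48 in DIFF2 (2.29 to 130), against 3.35 in UNDIFF1 (2.80 to 5.20) and 4.60 in UNDIFF2 (2.46 to 10.3). The medians of the whole lists were 4.31 in DIFF1 and 5.15 in DIFF2, against 3.40 in UNDIFF1 and 4.14 in UNDIFF2. The middle 50% of the genes' peaks overlapped that of the list in all 4 samples. Scores within 5 of the lowest in the list were found for 79.3% of the genes' peaks in DIFF1 (23 of 29) and 44.6% in DIFF2 (137 of 307), against 81.8% in UNDIFF1 (9 of 11) and 83.3% in UNDIFF2 (10 of 12). The shares of the whole lists were 81.4% in DIFF1 and 51.7% in DIFF2, against 87.2% in UNDIFF1 and 83.5% in UNDIFF2. Soft-masked centres made up 31.0% of the genes' peaks in DIFF1 (9 of 29, Wilson interval 17.3% to 49.2%) and 88.6% in DIFF2 (272 of 307, 84.6% to 91.7%), against 0% in UNDIFF1 (0 of 11, up to 25.9%) and 33.3% in UNDIFF2 (4 of 12, 13.8% to 60.9%). The shares of the whole lists were 26.6% in DIFF1 and 86.0% in DIFF2, against 21.4% in UNDIFF1 and 26.3% in UNDIFF2. With the repeats set aside, Pla2g4a and Hpgd were the genes with peaks in all 4 samples. The share of all genes under that filter was not computed.

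**Figure D4:**
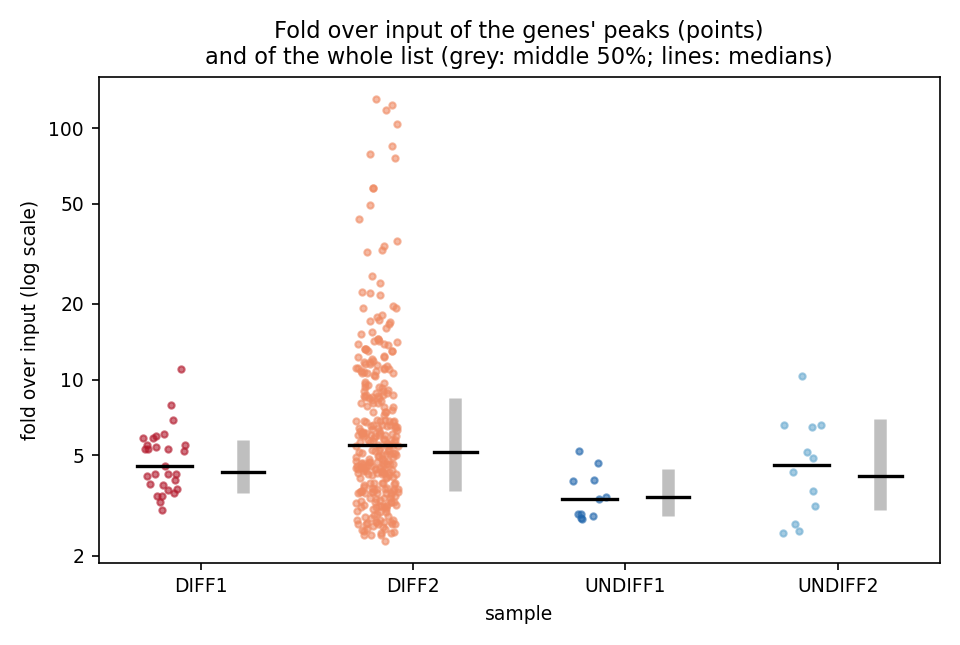
Fold over input, on a log axis, of each peak of the 10 genes (points, with their median as a line) beside the middle 50% (grey) and median (line) of the whole list, by sample. The medians of the genes and of the list lie close together in each sample, and the folds above 11.1 all belong to DIFF2.

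Other genes of the pathway were counted in the same way from 3 lists, beside the shares of all genes with peaks in all 4 samples (4.54%), with peaks in DIFF2 alone (52%) and DIFF-only (14.2%). Of 17 further genes of prostanoid synthesis and breakdown, 0 had peaks in all 4 samples, 11 had peaks in DIFF2 alone and 2 were DIFF-only. Of 8 genes of prostanoid receptors and transport, 0 had peaks in all 4 samples, 4 had peaks in DIFF2 alone and 4 were DIFF-only. Of 10 leukotriene and lipoxygenase genes, 0 had peaks in all 4 samples, 7 had peaks in DIFF2 alone and 1 was DIFF-only. Peaks within 10 kb of a start site in DIFF1 were found at Ptgdr, a receptor of prostaglandin D2 that neighbours Ptger2 on chromosome 14 (4.23 kb upstream, 6.10-fold), at Ptgdr2, the other receptor of prostaglandin D2 (5.78 kb upstream, 5.21-fold), and at Pla2g10, a secreted phospholipase A2 (9.07 kb downstream, 6.63-fold). In UNDIFF1 there was 1 at Ptgis, the prostacyclin synthase (5.50 kb downstream, 2.81-fold). Cysltr2, a receptor of cysteinyl leukotrienes, had the only overlapping pair of these 35 genes, in DIFF1 (2.38 kb upstream, 3.25-fold) and DIFF2 (2.35 kb upstream, 4.69-fold), and both centres were soft-masked.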

How the data were processed

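BMAL1 ChIP and input DNA of 2 DIFF and 2 UNDIFF HC11 cultures were sequenced. Per the labels and methods, the authors used FastQC 0.11.7, Bowtie2 2.2.9 (GRCm38) and HOMER 4.10, calling peaks in each sample against its own input. They relaxed the HOMER defaults, with the folds over input, over local tags and over expected unique tag positions set at 2. The paper states that false positives likely rose as a result. The deposited lists give tags as signal, a focus ratio as a fraction, a findPeaks score, folds over input and local tags as ratios, and unadjusted p-values over input and local tags. Scores and folds were used within a list. Depth was read from tags and normalized tags and is the total of ChIP or input, whichever is smaller.

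Peaks were assigned to 45756 curated RefSeq transcripts (release 108.20200622). Background shares are over 21000 protein coding genes. Overlap was 1 bp or more. Nearest sites and overlaps were tested on simulated data against brute force and bedtools 2.31.1. States were compared by an exact permutation test. The members and lists were chosen with earlier results of these data known. All 10 genes were named, with peaks within 10 kb of a start site, of highest fold, with CACGTG or overlapping, and pathway genes with peaks in all 4 samples, overlapping peaks or peaks within 10 kb outside DIFF2. Python 3.11.15, numpy 2.4.6, pandas 2.3.3 and scipy 1.17.1 were used. Reads and inputs alone were not analysed here.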

Additional observations from a re-analysis of the deposited data

How the results depend on the processing

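No paired analysis was possible because the DIFF and UNDIFF cultures carry no shared replicate numbers, and each ChIP was already compared with its own input by the peak caller. The log2 difference in peak number stayed positive throughout, from 0.14 with equal numbers of peaks to 4.74 without DIFF1. The difference per 1000 peaks turned to 0.19 at a fold over input of at least 4 and to 0.18 with equal numbers of peaks, and was -0.60 without Pla2g4a, -0.48 within 100 kb, -0.46 with predicted transcripts, -0.39 without soft-masked centres and -0.30 to 0.20 when each sample was left out. The number of genes with peaks in all 4 samples fell to 3 with predicted transcripts, to 3 within 100 kb, to 2 at a fold of at least 4, to 2 without soft-masked centres, to 1 (Hpgd) with equal numbers of peaks and to 3 at a score of at least 24, and was 5 to 7 with a sample left out. DIFF-only genes numbered 1 by nearest start site alone, 1 within 100 kb (both Tbxas1) and 1 at a fold of at least 4 (Ptger3), and 0 to 3 with a sample left out. Genes with overlapping peaks numbered 0 within 100 kb, at a fold of at least 4, with equal numbers of peaks, without soft-masked centres, with an overlap of at least 50% and without Pla2g4a, 2 with centres within 1 kb (Pla2g4a and Ptger2), and 0 to 1 with a sample left out. With predicted transcripts the 1 gene was Tbxas1 in place of Pla2g4a. Genes with a peak within 10 kb numbered 5 with equal numbers of peaks, 3 without soft-masked centres and 5 to 10 with a sample left out. Within 2 kb there were 2. Among these settings the share of all genes was computed only within 2 kb and for the 10 kb count without DIFF2. The other gene counts cannot be set against such a share, except the DIFF-only count without DIFF1, for which the shares are given above. Of 119 recounts of single genes, 69 stayed within 1.5 times the reported number and 50 did not. Pla2g4a, with 228 peaks, had 26 with predicted transcripts and 26 within 100 kb. Leaving out Pla2g4a and the score minimum of 24 were chosen after seeing the data. With 2 cultures a state no difference between states could pass a threshold of 0.05.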
